A study of Mus musculus with 8 samples.

Results

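The 10 genes examined were Atf4, Atf5, Ddit3, Trib3, Asns, Chac1, Sesn2, Xbp1, Herpud1 and Psat1, a hand-made list of the ATF4 branch of the integrated stress response and of neighbouring arms of the unfolded protein response. They were matched by Ensembl identifier among 21915 genes in the table of mRNA-seq counts, and all 10 were among the 14142 genes with enough reads to be tested. The cells were Hepa 1-6, a mouse hepatoma line, collected 5 days after transduction. The Kap1 KD cells received a vector encoding an shRNA against Kap1 (gene symbol Trim28), a transcriptional co-repressor. The control cells received an empty vector by the study's methods and a control shRNA by the sample labels. There were 2 control and 2 Kap1 KD samples, and in each group 1 sample carried the number 2 and the other no number. Nothing in the labels tells whether they were separate cultures, so p-values rest only on spread between these samples, which may be technical. As a model they represent 1 cell line and 1 shRNA construct.

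The integrated stress response begins with kinases that phosphorylate eIF2α, which lowers general protein synthesis while the Atf4 mRNA is translated more. The ATF4 protein then activates genes for amino acid synthesis and uptake, and genes such as Ddit3 and Trib3. Stress in the endoplasmic reticulum (ER) triggers the same kinase branch together with the XBP1 and ATF6 arms, and the liver, which secretes much protein, relies on all of them. ATF4 is controlled largely by translation and XBP1 by mRNA splicing, and counts per gene measure neither.

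The promoters of the list are shown because ATF4 acts through a short sequence, the C/EBP-ATF response element. All 10 symbols were matched in RefSeq promoters of GRCm38.p6, in 12 windows running from 250 bases before to 50 after a start. The motif TGATGNAA, read on both strands, was present for 4 of the 10 genes (4 of the 12 windows), and in 3.97% of all 32851 windows. In Asns, Chac1 and Herpud1 it lay before the start, where 3.45% of all windows held it. Capitals mark the match. In Chac1 and Herpud1 it stands on the opposite strand.
Asns, chr6:7693210-7693262, minus strand, match from −23 to −16 bases of the start: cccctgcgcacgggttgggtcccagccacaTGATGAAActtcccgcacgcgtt
Chac1, chr2:119351019-119351086, plus strand, match from −193 to −186 bases of the start: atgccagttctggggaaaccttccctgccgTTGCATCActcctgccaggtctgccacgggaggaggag
Herpud1, chr8:94386287-94386354, plus strand, match from −112 to −105 bases of the start: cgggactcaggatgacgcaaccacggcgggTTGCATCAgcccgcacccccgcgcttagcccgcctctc
In Trib3 the match TTACATCA lay 14 to 21 bases after the start, on the opposite strand. The UPR element TGACGTG, the cAMP response element TGACGTCA and the ER stress element (CCAAT, 9 bases, CCACG) were in the windows of 0 of the 10 genes, and in 2.01%, 1.79% and 0.119% of all windows. The cAMP response element shares the letters TGACGT with the UPR element. These matches describe letters in a window, and no binding was measured here. Enrichment over all windows was not tested, as the genes were hand-picked around ATF4.

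Total counts per sample ranged from 41566888 to 53605115. Trim28, the targeted gene, stood at 456 and 575 TMM-normalised CPM (counts scaled to library size) in control and at 106 and 78.9 in Kap1 KD. Its log2 change was −2.48 (SE 0.25). In edgeR without a block its adjusted p was 0.9999, and in DESeq2 with the sample number as a block it was 8.9e-09. Among 9 hepatocyte markers, of which 1 to 3 had at most 10 counts per sample, Alb and Afp were abundant, whereas Ttr and Serpina1a had at most 11 counts in any sample, and Apoa1 at most 21. The summed hepatocyte markers stood at 2454 and 2075 CPM in control and 1710 and 1096 CPM in Kap1 KD. Summed biliary markers, mostly Krt7, were at 102 and 49.1 CPM in control and at 80.7 and 33.9 CPM in Kap1 KD, the numbered sample being the lower each time. The endothelial, leukocyte and fibroblast lists summed to between 0.144 and 10.4 CPM. The endothelial markers Kdr and Cdh5 had at most 2 counts in any sample. The part of these marker differences in the values below was not tested.

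The levels of the 10 genes spanned a wide range, with the transcription factor gene Atf4 and the amino acid enzyme genes at the top. Per kb of annotated exon, Atf4 averaged 131 CPM per kb (SD 28.3 over the 4 samples). Psat1, an enzyme of serine synthesis, averaged 99.2 CPM per kb (SD 2.83). Asns, which makes asparagine, averaged 96.1 CPM per kb (SD 7.24). The lowest Atf4 sample, at 98.8 CPM per kb, lay within the ranges of both enzyme genes. Within each of the 4 samples, though, Atf4 stood above both. The margin over Psat1 was narrow in the numbered Kap1 KD sample, at 98.8 against 97.4 CPM per kb. Psat1 and Asns changed places between samples. Xbp1 averaged 34.6 and Atf5 32.9 CPM per kb, and their ranges overlapped. Herpud1 followed at 14.3 CPM per kb, clear of both.
Sesn2 averaged 10.4 CPM per kb and overlapped Herpud1, and Ddit3, at 8.86 CPM per kb, overlapped Sesn2. Trib3 averaged 4.87 CPM per kb, below every sample of Ddit3. Chac1 was the lowest of the 10 at 3.71 CPM per kb, with a range reaching that of Trib3. The median over tested genes was 5.58 CPM per kb. By percentile of tested genes, the list ran from 42.0 for Chac1 to 96.2 for Atf4. With the longest transcript as the length, Psat1 stood first at 161 CPM per kb, before Atf4 at 131 and Asns at 130.

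**Figure D1:**
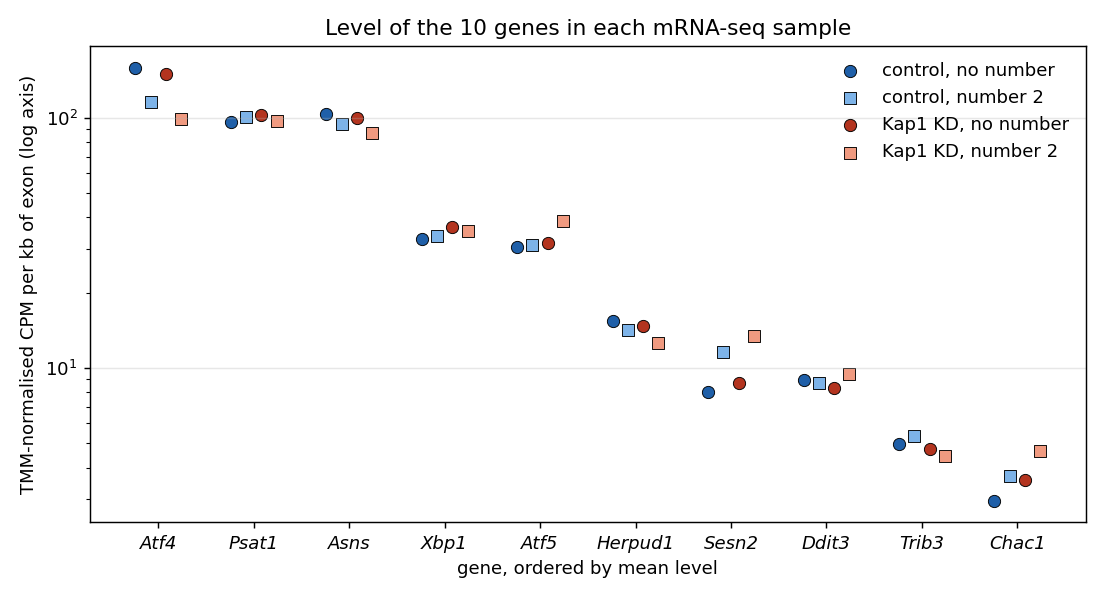
TMM-normalised CPM per kb of annotated exon (vertical log axis) for each of the 10 genes, ordered by mean, with 1 point for each of the 2 control and 2 Kap1 KD samples. Atf4 runs from 98.8 to 159 and Chac1 from 2.95 to 4.64 CPM per kb. In Atf4 both numbered samples (squares) lie below both samples with no number (circles), and in Sesn2 above them.

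The comparison of Kap1 KD with control asked whether loss of KAP1 alters the mRNA of these stress genes. None of the 10 passed the call, a change of 1.5-fold with an adjusted p under 0.05. In the edgeR quasi-likelihood test without a block, which called 0 genes of the 14142 (0%), each member had an adjusted p of 0.9999, as did Trim28. At an unadjusted p under 0.05 that test passed 185 genes (1.31%), and again 0 of the 10, while DESeq2 without a block called 3 genes. The median log2 change of the 10 was 0.01, against −0.02 over all tested genes, and the median size regardless of sign was 0.13 against 0.15. Fitted log2 changes ran from −0.17 for Trib3 to 0.30 for Chac1. The widest 95% interval, that of Sesn2, reached from −0.66 to 1.0. The intervals of Atf4, Atf5, Trib3, Chac1, Sesn2 and Herpud1 held changes of 1.5-fold in at least 1 direction.

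When the sample number entered the fit as a replicate block, 631 genes (4.46%) were called, and 0 of the 10. By adjusted p alone, 3052 genes (21.6%) passed in that fit, and 1 of the 10 did, Atf4. The number pairs the samples only by inference, because 1 sample of each group has none, and the block leaves 1 residual degree of freedom. With so little per gene, edgeR draws the spread largely from all genes together. SEs and p-values with the block therefore do not measure each gene's own spread. Trim28, with pair changes of −2.1 and −2.9, had an SE of 0.06 there. In 8 of the 10 genes both pairs differed in the same direction, 4 higher and 4 lower in Kap1 KD. Over all tested genes 71% did so. The 2 Kap1 KD samples lay beyond both controls in 3 of the 10 genes, Atf5 and Xbp1 above and Trib3 below, and in 20.3% of all tested genes. In 6 of the 10 genes the Kap1 KD change was smaller than the difference between the 2 controls, as in 74.2% of all tested genes.

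**Figure D2:**
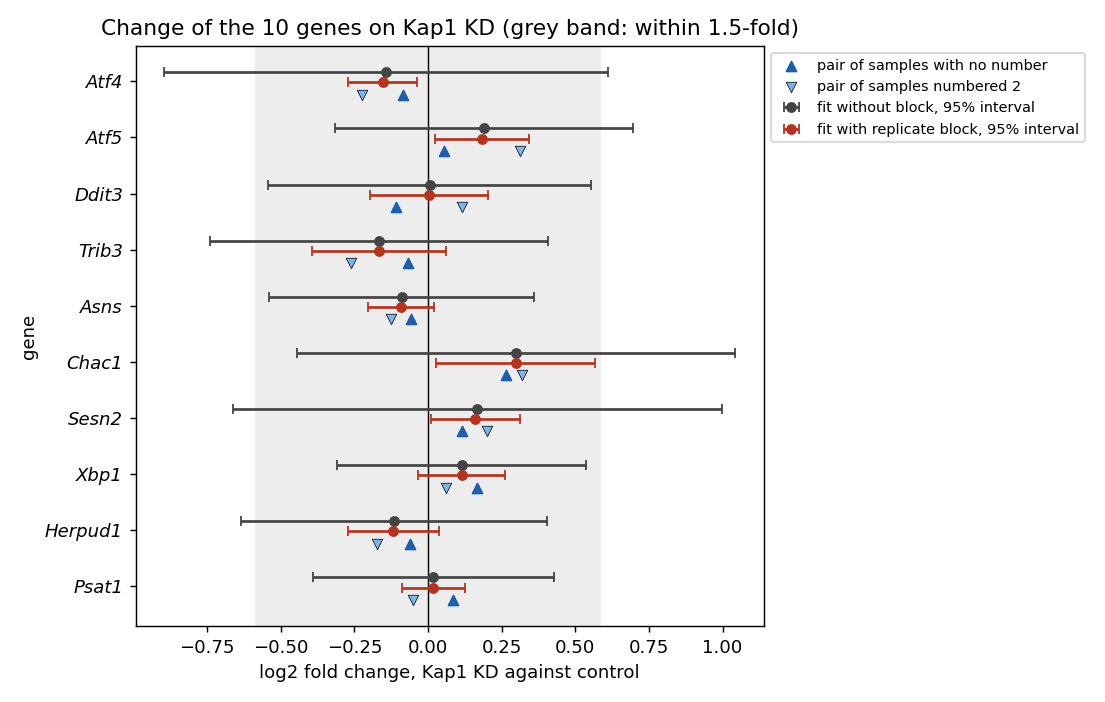
Log2 fold change of Kap1 KD against control (horizontal axis) for each of the 10 genes (vertical axis). Circles with bars are estimates with 95% intervals, dark for the fit without block and red for the fit with the replicate block. Triangles are the 2 pairs, and the grey band marks changes within 1.5-fold. The estimates run from −0.17 for Trib3 to 0.30 for Chac1, all inside the band.

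Of the transcription factors, Atf4 encodes the central activator of the response and lies at chr15:80085614-80087970 of mm9, plus strand. It measured 274 and 199 CPM in control and 258 and 170 CPM in Kap1 KD. The groups overlapped, and within each group the numbered sample was the lower. The log2 change was −0.14 (SE 0.29, 95% interval −0.90 to 0.61). With the block it was −0.15 (SE 0.06), with an edgeR adjusted p of 0.0462. In DESeq2 with the same terms the adjusted p was 0.337. The edgeR value depended on the scaling, with an adjusted p of 0.0143 by total counts and 0.0701 by median-of-ratios factors. The log2 changes within the pairs were −0.08 (counting SE 0.02) for the samples with no number and −0.22 (counting SE 0.02) for those numbered 2. Without the block, leaving out the unnumbered control turned the log2 change to 0.11, and leaving out the numbered Kap1 KD sample to 0.14.

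Atf5, a relative of Atf4 whose mRNA is likewise translated under stress, lies at chr7:52067627-52072028, minus strand. It measured 60.7 and 61.9 CPM in control, a spread of 61.3 ± 0.817 (SD, n = 2). In Kap1 KD it measured 63.0 and 76.8 CPM. Both Kap1 KD samples exceeded both controls, but the unnumbered one by little, and most of the log2 change of 0.19 (SE 0.19) came from the numbered pair. That pair differed by 0.31 (counting SE 0.04) and the other by 0.05 (counting SE 0.04). With the block the log2 change was 0.18 and the edgeR adjusted p 0.0910. Of its exon sequence, 82 bases also belong to Nup62 and Il4i1 on the opposite strand, and the strand setting of the counting is not given in the sources used here.

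Ddit3 encodes CHOP, the factor tied to cell death under long ER stress, and lies at chr10:126727830-126733344, plus strand. Its 4 samples were close, at 15.3 and 15.0 CPM in control and 14.2 and 16.2 CPM in Kap1 KD. The log2 change was 0.01 (SE 0.21, 95% interval −0.54 to 0.55), and it turned to −0.05 with total-count scaling and to −0.08 without the numbered Kap1 KD sample. The pairs went opposite ways, by −0.11 and 0.11 (counting SE 0.08 and 0.07). Its exons share 68 bases with Mars on the opposite strand.

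Xbp1, the factor of the IRE1 arm of the ER response, lies at chr11:5420662-5425896, plus strand. It measured 106 and 110 CPM in control and 119 and 115 CPM in Kap1 KD. With TMM scaling the groups did not overlap, with means of 108 ± 2.72 and 117 ± 3.24 CPM (SD, n = 2 each). With total-count scaling they overlapped. The log2 change of 0.11 (SE 0.16) did not pass, nor did it with the block (edgeR adjusted p 0.292). The spliced and unspliced forms are summed in these counts.

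Among the genes that feed back on the response or act late in it, Trib3, a pseudokinase that restrains ATF4 and CHOP, lies at chr2:152163158-152169768, minus strand. It measured 10.6 and 11.3 CPM in control and 10.1 and 9.43 CPM in Kap1 KD. Both Kap1 KD samples lay below both controls. The log2 change was −0.17 (SE 0.22), and with the block the edgeR adjusted p was 0.329. The numbered pair differed by −0.26 and the other by −0.07, each with a counting SE of 0.09.

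Chac1, which degrades glutathione, lies at chr2:119176965-119180117, plus strand. It had the fewest reads, between 248 and 355 counts per sample. It measured 4.83 and 6.07 CPM in control and 5.82 and 7.59 CPM in Kap1 KD. The groups overlapped, while each pair was higher in Kap1 KD, by 0.26 (counting SE 0.13) and 0.32 (counting SE 0.11) on the log2 scale. The log2 change of 0.30 had an SE of 0.29 without the block, and ran from 0.10 without the numbered Kap1 KD sample to 0.49 without the numbered control. With it the SE was 0.14 and the edgeR adjusted p 0.108.

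Sesn2, a stress gene that restrains mTORC1 when leucine is scarce, lies at chr4:132047947-132066416, minus strand. It measured 27.9 and 40.4 CPM in control and 30.3 and 46.5 CPM in Kap1 KD. The numbered samples were the 2 highest, so the groups overlapped. The log2 change was 0.17 (SE 0.32), and with the block the edgeR adjusted p was 0.125. The pairs differed by 0.12 (counting SE 0.05) and 0.20 (counting SE 0.04). Without the block, leaving out the unnumbered control turned the log2 change to −0.07, and leaving out the numbered Kap1 KD sample to −0.17.

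Of the amino acid enzymes, Asns lies at chr6:7625169-7643254, minus strand. It measured 283 and 259 CPM in control and 272 and 237 CPM in Kap1 KD. The ranges overlapped, and the log2 change was −0.09 (SE 0.17). It was 0.02 without the numbered Kap1 KD sample and −0.19 without the unnumbered one. With the block the edgeR adjusted p was 0.266. The pairs differed by −0.06 and −0.13, each with a counting SE of 0.02.

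Psat1 lies at chr19:15979168-16021827, minus strand, and had the most reads of the 10, between 18532 and 22825 counts per sample. Its samples stood close together, at 410 and 429 CPM in control and 435 and 414 CPM in Kap1 KD. The log2 change was 0.02 (SE 0.16, 95% interval −0.39 to 0.43), and it turned to −0.03 with total-count scaling and to −0.02 without the unnumbered control or the unnumbered Kap1 KD sample. The pairs went opposite ways, by 0.09 and −0.05, each with a counting SE of 0.01.

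Herpud1, a component of ER-associated degradation, lies at chr8:96910338-96919277, plus strand. It measured 36.0 and 33.2 CPM in control and 34.5 and 29.4 CPM in Kap1 KD. The groups overlapped, and the log2 change was −0.12 (SE 0.20). It was 0.00 without the numbered Kap1 KD sample and −0.23 without the unnumbered one. With the block the edgeR adjusted p was 0.306. The pairs differed by −0.06 (counting SE 0.05) and −0.17 (counting SE 0.05).

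The sample number went with larger differences than Kap1 KD for some of these genes, as for most of the table. In the fit with both terms, 3748 of the 14142 genes (26.5%) were called between samples numbered 2 and those with no number, and 0 of the 10 were. By adjusted p alone 8990 genes (63.6%) passed, and 5 of the 10 did, Sesn2 and Chac1 higher and Atf4, Asns and Herpud1 lower in the numbered samples. The median size of the difference was 0.16 for the 10 genes and 0.37 for all tested genes. What the number marks is not stated in the labels, and the comparison uses the same 4 samples as that of Kap1 KD.

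Atf4 was lower in the numbered samples by a log2 difference of −0.53 (SE 0.06, edgeR adjusted p 1.0e-17). The difference was −0.46 between the controls and −0.60 between the Kap1 KD samples. Sesn2 was higher by 0.57 (SE 0.08, edgeR adjusted p 6.6e-13), with 0.53 between the controls and 0.62 between the Kap1 KD samples. DESeq2 gave adjusted p of 1.3e-08 for Atf4 and 1.6e-06 for Sesn2. In edgeR without the Kap1 KD term the adjusted p was 0.0136 for each. Both genes lay close to the 1.5-fold limit, a log2 value of 0.585. Sesn2 passed it, at 0.59, under DESeq2, median-of-ratios scaling or no low-count filter, and Atf4 passed it, at −0.62, under total-count scaling.
Chac1 differed by 0.36 (SE 0.14, edgeR adjusted p 0.0171), Asns by −0.16 (SE 0.06, edgeR adjusted p 0.00779) and Herpud1 by −0.17 (SE 0.08, edgeR adjusted p 0.0489). These 3 did not pass in DESeq2, where the adjusted p were 0.168, 0.119 and 0.282. Nor did they in edgeR without the Kap1 KD term (adjusted p 0.181, 0.191 and 0.262). Atf5 differed by 0.16 with an edgeR adjusted p of 0.0798. Ddit3, Trib3, Xbp1 and Psat1 differed by at most 0.08 in size, and the sign of each turned with at least 1 scaling. ATF4 is known as an activator of Sesn2, and here Atf4 mRNA was lower where Sesn2 mRNA was higher, in both groups. ATF4 protein was not measured, and a link between these differences was not tested. For 6 of the 10 genes the difference with number exceeded the change with Kap1 KD in size, as it did for 10796 of the 14142 tested genes.

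**Figure D3:**
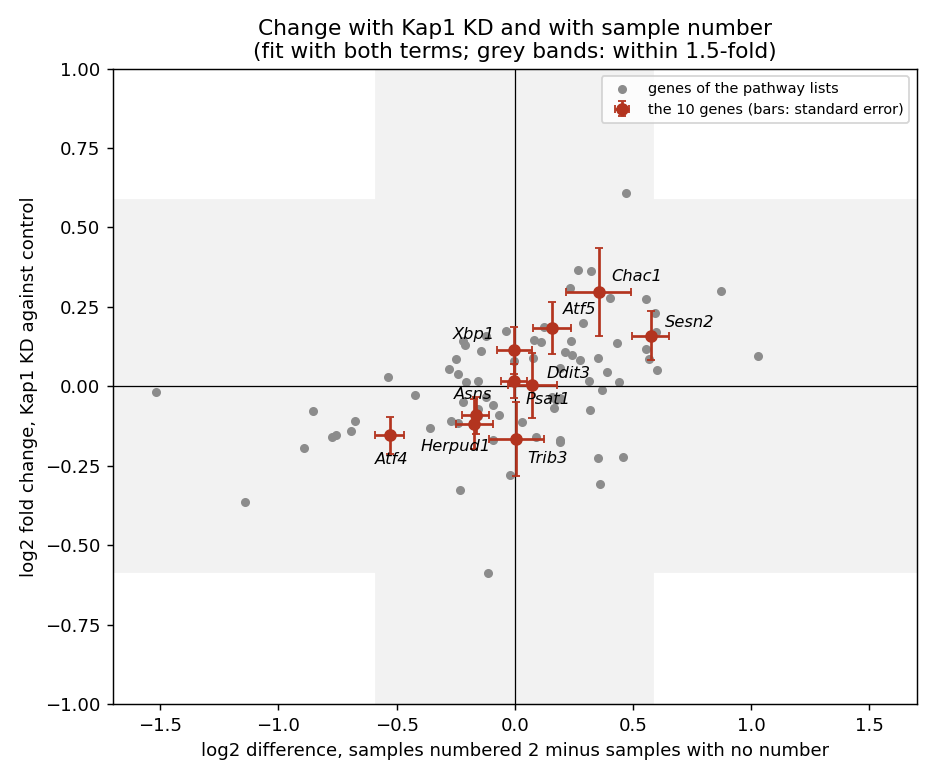
Log2 difference of samples numbered 2 from samples with no number (horizontal axis) and log2 change of Kap1 KD against control (vertical axis), both from the fit with both terms. Red points with standard errors are the 10 genes, grey points the genes of the pathway lists, and grey bands mark values within 1.5-fold. Atf4 lies at −0.53 and Sesn2 at 0.57 on the horizontal axis, while all 10 genes lie between −0.17 and 0.30 on the vertical axis.

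Another 79 genes of the pathway, in 5 lists, gave the setting of these values, and 75 of them were tested. Without the block 0 of the 75 were called for Kap1 KD. With it 2 were called, Bbc3 higher and Aldh1l2 lower, beside 4.46% of all tested genes. By adjusted p alone 16 passed, 9 higher and 7 lower, beside 21.6%. The median log2 change over the 75 genes was 0.02, and their median size was 0.11. The 2 Kap1 KD samples lay beyond both controls in 17 of the 75 genes, 10 above and 7 below, beside 20.3% of all tested genes. By sample number, 55 of the 75 passed by adjusted p alone, beside 63.6% of all tested genes.

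In the first step of the pathway, 12 genes for eIF2α kinases, the phosphatase subunits and eIF2 or eIF2B were tested. With the block 2 rose by adjusted p alone and 0 fell, beside 21.6% of all tested genes passing. Ppp1r15a, the stress-inducible phosphatase subunit GADD34, measured 26.4 and 38.2 CPM in control and 31.3 and 47.0 CPM in Kap1 KD. Its log2 change was 0.27 (SE 0.08, edgeR adjusted p 0.00398), though its groups overlapped. Its difference with the sample number was larger, at 0.56. It was named after its value was seen, outside the rule for named genes. Eif2b2, a subunit of the exchange factor eIF2B, rose by 0.23 (edgeR adjusted p 0.0266), though its groups overlapped. DESeq2 with the block passed neither (adjusted p 0.111 and 0.129). The kinase gene Eif2ak1 was lower in both Kap1 KD samples, by −0.11, and did not pass. Eif2ak2, the kinase PKR, differed by −0.89 with the sample number, Eif2b5 by 0.60 and Eif2b2 by 0.59.

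Of 17 tested genes for amino acid and one-carbon enzymes and transporters, 2 rose and 1 fell by adjusted p alone with the block. Among all tested genes 21.6% passed that rule. Phgdh, the first enzyme of the serine pathway in which PSAT1 acts next, rose by 0.30 (SE 0.06, edgeR adjusted p 1.0e-05, DESeq2 adjusted p 0.00194). It measured 1310 and 2323 CPM in control and 1560 and 2953 CPM in Kap1 KD, so that both pairs rose although the groups overlapped. Its difference with the sample number was larger, at 0.87. Slc7a1, a transporter of cationic amino acids, rose by 0.17 (edgeR adjusted p 0.0196, DESeq2 adjusted p 0.173). Slc7a5, a transporter of large neutral amino acids, had a change of 0.19 and did not pass.
Aldh1l2, a mitochondrial folate enzyme, measured 2.60 and 1.94 CPM in control and 1.34 and 1.67 CPM in Kap1 KD. Its log2 change with the block was −0.59 (SE 0.21, edgeR adjusted p 0.0266), at the limit of the call. DESeq2 gave it no adjusted p. Slc6a9, a glycine transporter, and Psph, the last enzyme of serine synthesis, had log2 values of −0.33 and −0.16 and did not pass. Slc3a2 and Slc7a11, which together form the cystine transporter, differed by 0.44 and 0.37 with the sample number and by 0.01 and −0.01 with Kap1 KD.

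Of 12 tested regulators and stress targets of ATF4 or CHOP, 3 rose and 1 fell by adjusted p alone with the block. That rule passed 21.6% of all tested genes. Bbc3, which encodes the pro-apoptotic protein PUMA, measured 7.49 and 8.61 CPM in control and 9.46 and 15.6 CPM in Kap1 KD. It was the gene with the largest increase among the 75, by 0.61 (SE 0.12, edgeR adjusted p 6.8e-06), and its DESeq2 adjusted p was 0.0263. The numbered pair differed by 0.85 and the other by 0.33. Eif4ebp1, a repressor of cap-dependent translation, rose by 0.36 (edgeR adjusted p 3.8e-07). Tnfrsf10b, a death receptor for TRAIL, rose by 0.37 (edgeR adjusted p 1.0e-04), with 0.37 and 0.36 in the pairs. These 2 also passed in DESeq2 with the block (adjusted p 0.00287 and 0.00246). Bbc3 and Tnfrsf10b are known targets of p53 as well, and so is Gadd45a, which fell. A part of p53 in these changes was not tested.
Gadd45a, a gene of growth arrest and DNA damage, fell by 0.36 on the log2 scale (edgeR adjusted p 0.0286), but its DESeq2 adjusted p was 0.333. With the sample number Vldlr, a lipoprotein receptor, differed by −1.52, Gadd45a by −1.14 and Ero1l, an ER oxidase, by −0.85.

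Of 12 cytosolic aminoacyl-tRNA synthetase genes, which ATF4 is known to activate together, 1 rose and 1 fell by adjusted p alone with the block. The share over all tested genes was 21.6%. Iars, for isoleucine, measured 245 and 248 CPM in control and 208 and 199 CPM in Kap1 KD, so the groups stood apart. It fell by 0.28 on the log2 scale (SE 0.06, edgeR adjusted p 6.6e-05), with a DESeq2 adjusted p of 0.0217. Sars, for serine, rose by 0.14 at the edge of the threshold (edgeR adjusted p 0.0495, DESeq2 adjusted p 0.277). Eprs and Wars did not pass for Kap1 KD, with log2 values of −0.03 and 0.05, and differed by −0.42 and 0.39 with the sample number.

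Of 22 tested genes of the ER response, 1 rose and 4 fell by adjusted p alone with the block, beside 21.6% of all. Atf6, the ER membrane sensor, measured 111 and 123 CPM in control and 130 and 162 CPM in Kap1 KD. It rose by 0.31 (SE 0.07, edgeR adjusted p 2.1e-04), and its DESeq2 adjusted p was 0.0102. The chaperone gene Canx fell by 0.17 on the log2 scale (edgeR adjusted p 0.0186), and its groups did not overlap. Hsp90b1, Pdia4 and Sec24d, the last a coat protein of ER export, fell too, by 0.15, 0.18 and 0.23. DESeq2 with the block passed none of these 4 (adjusted p 0.202 to 0.299). The groups of Hsp90b1, Pdia4 and Sec24d overlapped. Pdia4 and Sec24d were named after their values were seen, outside the rule for named genes. Edem1, of ER-associated degradation, and Manf, an ER-stress secreted factor, stood above both controls, by 0.16 and 0.15, without passing. With the sample number Sdf2l1 differed by 1.03, Dnajc3 by −0.77 and Hsp90b1 by −0.76, so that ER chaperone genes lay on both sides.

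**Figure D4:**
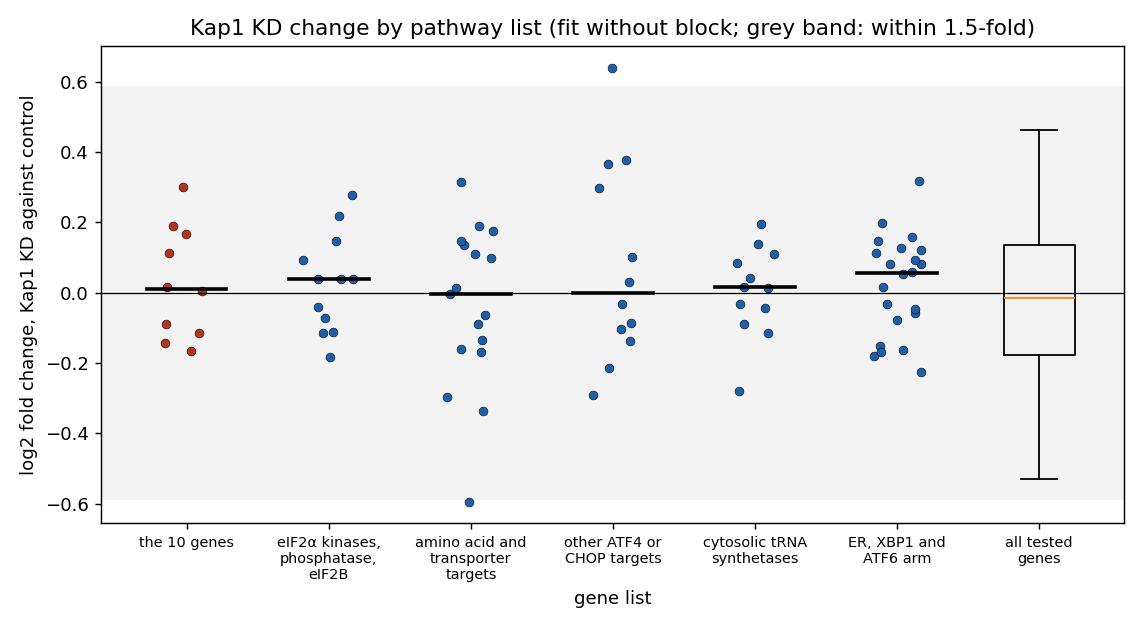
Log2 fold change of Kap1 KD against control (vertical axis, fit without block) by gene list (horizontal axis). Points are genes, spread sideways for legibility, black lines are list medians, and the box with whiskers spans the quartiles and the 5th to 95th percentiles of all tested genes, −0.53 to 0.46. Medians lie between 0.00 and 0.06, and Bbc3 at 0.64 and Aldh1l2 at −0.59 are the points outside the grey band of 1.5-fold.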

How the data were processed

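The table deposited by the authors holds unnormalised counts of reads by Ensembl gene for 4 mRNA-seq samples of Hepa 1-6 cells. By the study's methods and the submitters' processing notes they were made with TopHat2 2.0.11 on mm9, 1 alignment kept per read, and HTSeq 0.6.1. Reads from near-identical pseudogene copies may therefore be misplaced. The small RNA tables hold other genes and were not used here.

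The quasi-likelihood test of edgeR 4.0.16 in R 4.3.3 was run after filterByExpr and TMM, with Benjamini-Hochberg adjustment over 14142 genes, without a replicate block and, beside it, with one. SEs were derived from the F statistic. DESeq2 1.42.0, the tool of the study, was an alternative, with others of scaling, filter, threshold and left-out samples. Pair changes used CPM plus 0.1, and their SE covers only the counting error, as reads were not tagged by molecule. Both edgeR fits were run on simulated data drawn from the fit with the block, and the fit without it missed the changed genes. Symbols and loci came from the mm9 annotation (21806 identifiers matched). The 10 genes and the pathway lists were chosen with earlier results of these data known. Named from the lists were up to 3 genes with the largest change each way whose groups did not overlap, and up to 3 with the largest difference by sample number. Stc2 and Fgf21 were not analysed here. With 2 samples against 2, an exact permutation test cannot go below p = 0.333.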

Additional observations from a re-analysis of the deposited data

How the results depend on the processing

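For Kap1 KD the edgeR test without a block called 0 genes. The replicate block gave 631, DESeq2 3, DESeq2 with the block 227, total-count scaling with the block 640, median-of-ratios scaling with the block 609, and adjusted p alone with the block 3052. Leaving out 1 sample gave 3 to 53 calls: 19 without control replicate 1, 20 without control replicate 2, 53 without Kap1 KD replicate 1 and 3 without Kap1 KD replicate 2, the lone sample being assumed to vary like the other group. On all 4 samples, 0 of the 10 genes were called at 1.5-fold with adjusted p under any setting. By adjusted p alone Atf4 was the only member to pass. It did so in edgeR with the block, at 0.0462 with TMM and 0.0143 with total-count scaling. With median-of-ratios scaling its edgeR adjusted p was 0.0701. Deviations from the group means of samples with the same number correlated at 0.796 over genes, which are not independent replicates.

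The log2 change kept its direction in 107 of 120 values per gene and setting. Total-count scaling turned Ddit3 to −0.045 (−0.044 with the block) and Psat1 to −0.027 (−0.030 with the block). With 1 sample left out, ranges crossed 0 for Atf4 (−0.47 to 0.14), Ddit3 (−0.083 to 0.10), Asns (−0.19 to 0.016), Sesn2 (−0.17 to 0.47), Herpud1 (−0.23 to 0.0048) and Psat1 (−0.019 to 0.069). The sign turned without Kap1 KD replicate 2 in these genes other than Psat1, without control replicate 1 in Atf4, Sesn2 and Psat1, and without Kap1 KD replicate 1 in Psat1. The other ranges kept their sign, at 0.10 to 0.49 for Chac1, 0.049 to 0.33 for Atf5, 0.085 to 0.16 for Xbp1 and −0.22 to −0.097 for Trib3. The median of the 10 genes, 0.011, moved to 0.021 with median-of-ratios, −0.036 with total counts, and 0.0039 to 0.037 with 1 sample left out. Groups did not overlap for 3 genes with TMM or median-of-ratios scaling and for 2 with total counts, where those of Xbp1 overlapped.

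By sample number, calls went from 3748 to 8990 by adjusted p alone, 1368 at 2-fold and 2936 without the Kap1 KD term. Members called went from 0 to 1 under DESeq2, median-of-ratios, total counts or no filter, and 5 by adjusted p alone. Directions turned for Ddit3 (−0.016) and Trib3 (−0.084) with total counts, and for Xbp1 (0.011) and Psat1 (0.012) with DESeq2, median-of-ratios or no filter. Leaving out a sample was not run there, since no residual degree of freedom would remain. The cause of these shifts was not tested. In edgeR without the block, on all 4 samples, no change of any size passed, that of Trim28 included, so a missed threshold there does not show that a gene kept its level.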
